A study of Homo sapiens with 10 samples.

Results

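The genes described here are 30 direct or well known transcriptional targets of p53, given as a list of symbols and matched to the Ensembl gene identifiers of the deposited count files. All 30 were found among the 58395 genes of the files. Of these, 29 had enough counts to be tested, with at least 18 reads in every library, and 16905 genes of the whole table were tested. TP53I11, a p53-induced gene of the survival and death group, was the exception, with 3 reads in 1 library of the siNT1 group at 24 h and 0 in the other 9 libraries, and was not detectable at this depth.

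RNA was sequenced from HeyA8, an established human ovarian cancer cell line, after transfection with 10 nM of 1 of 3 siRNA duplexes. siGGGGGC (siMxy in the labels) and siGGCAGU (si34a) carry the 6 bases of their names at guide positions 2 to 7, the 6mer seed through which a guide strand pairs with messenger RNAs, and siNT1 (siNT1 S2'OM in the labels) is the non-targeting control with the seed UAGUCG. The passenger strands of all 3 duplexes were chemically modified. There were 5 groups of 2 libraries each, siNT1 at 24 h, siGGGGGC at 24 h, siNT1 at 48 h, siGGGGGC at 48 h and siGGCAGU at 48 h, so siGGCAGU has no library at 24 h here. Duplicates were wells of a transfection of 1 cell line, and p-values therefore measure the spread between wells and libraries and not between independent cultures.

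p53 is a transcription factor that is kept low by MDM2 and rises when cells meet DNA damage, ribosomal or replication stress or other insults. It binds a response element made of a pair of half-sites in its target genes and raises their transcription. The targets stop the cell cycle, repair DNA, adjust metabolism and redox state, promote or restrain death, and feed back on p53 itself. Many cell cycle genes fall when p53 is active, through the CDK inhibitor p21 and the repressor complex DREAM. miR-34a, whose seed siGGCAGU carries, is itself a p53 target.

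The sequences below show the seed that is shared with miR-34a-5p and the places where either seed could pair in the members that the results turn on. In the mature miR-34a-5p of RefSeq (GRCh38.p14, chromosome 1, minus strand, written 5′ to 3′) bases 2 to 8 are in capitals, and the first 6 of these 7 are the seed that siGGCAGU carries.
hsa-miR-34a-5p: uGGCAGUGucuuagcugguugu
CDKN1A (p21) had the most matches to the siGGGGGC seed among the members, 4 copies of GCCCCC in its annotated 3′ UTR of 1537 bases (hg38, plus strand). These copies are in capitals, with 10 bases on either side.
CDKN1A at chr6:36685943-36685948: taccctggccGCCCCCtgccccccag
CDKN1A at chr6:36685950-36685955: gccgccccctGCCCCCcagcctctgg
CDKN1A at chr6:36686770-36686775: agcagcgaccGCCCCCtcctctagct
CDKN1A at chr6:36686817-36686822: ggtggcacagGCCCCCttgagtgggg
CCNG1 and CYFIP2 each had 2 matches to the siGGCAGU seed, ACTGCC, more than any other member (hg38, plus strand, matches in capitals). The first of CCNG1 and both of CYFIP2 are shown.
CCNG1 at chr5:163443813-163443818: acttgggaaaACTGCCtaatattatg
CYFIP2 at chr5:157393837-157393842: cagtcatagcACTGCCtatagcatta
CYFIP2 at chr5:157395262-157395267: ccttggcattACTGCCccagcctctt
Promoter windows of RefSeq (GRCh38.p14), all of the same length and reaching from upstream of a start site to just after it, were at hand for 25 members. They were searched on both strands for the p53 response element, a pair of half-sites 0 or 1 base apart that keep the core C and G, with at most 2 other mismatches. A match was found in 3 of the 25 members (12%) and in 184 of all 27305 promoters (0.674%). The core C and G of each half-site are in capitals, and all are on the plus strand.
DDB2 at chr11:47214979-47214999: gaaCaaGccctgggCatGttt
MDM2 at chr12:68808923-68808942: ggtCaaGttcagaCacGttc
AEN at chr15:88621306-88621325: gggCttGcccgggCatGtgg
DDB2 matched the consensus with 0 mismatches and 1 base between the half-sites, and MDM2 and AEN matched with 2 mismatches. The windows that held the DDB2 and MDM2 matches lay inside these genes, downstream of their annotated starts (chr11:47214465 and chr12:68808177). A match of this kind is a description of the letters and not a test of binding, and response elements outside these windows were not searched.

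Total counts per library ranged from 19781445 to 42428986, and the small RNA genes RN7SL2 and SNORD3A took 19.83% to 31.96% of them. Of the epithelial carcinoma markers 6 of 8 passed the count filter, with CDH1 and MUC16 at 0 to 26 reads. Among the 6, KRT19 had only 8 to 38 reads in a library and EPCAM 8 to 51. All 3 mesenchymal markers passed and 0 of 5 leukocyte markers did. Of the endothelial markers 2 of 3 passed and of the fibroblast markers 2 of 4, none with more than 55 reads in a library. Normalised counts below are reads scaled by edgeR's TMM method, and a gene passed the test at an adjusted p below 0.05 in edgeR's quasi-likelihood test over all 16905 genes. A change beyond 2-fold also has a log2 fold change beyond 1 in either direction. Per kilobase of annotated exons, the most abundant members were PLK2, with a mean CPM (counts scaled to a common library size) of 150 over the 10 libraries, CDKN1A with 92.6, CCNG1 with 82.7, RPS27L with 61.4 and MDM2 with 56.7. CCNG2 was the lowest of the tested members on this scale at a CPM per kilobase of 0.352.

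Most of the 29 tested members were higher at 48 h with either siRNA than with siNT1. Few differed at 24 h, near the shares of all genes. Of 25 other tested p53 targets, described below, 48% rose and 20% fell with siGGGGGC at 48 h. With siGGCAGU 36% of them rose and 28% fell. With siGGGGGC at 48 h, 19 of the 29 tested members rose and 1 fell, where 27.8% of all tested genes rose and 27.5% fell. The 4 members that rose beyond 2-fold were GADD45A, SESN1, EDA2R and GDF15, against 10.5% of all genes rising and 11% falling by that much. These 4 of 29 are near the share of all genes that rose. With siGGCAGU at 48 h, 18 members (62.1%) rose and 6 (20.7%) fell, against 27.8% and 24.9% of all genes, so the share that fell was near that of all genes. The 6 became 3 without siNT1 replicate 2 and 2 without siGGCAGU replicate 2. Here CCNG2, TP53I3, TP53INP1, SPATA18, GDF15 and TRIM22 rose beyond 2-fold and CYFIP2 fell beyond 2-fold, against 10.7% and 9.62% of all genes. GDF15 was the 1 member in both sets of more than 2-fold rises. With 1 library left out the change was no longer beyond 2-fold for GADD45A with siGGGGGC (log2 down to 0.95, without siNT1 replicate 1) and, with siGGCAGU, for CCNG2 (0.87, without siNT1 replicate 2), TP53I3 (0.95, without replicate 2 of either group) and CYFIP2 (-0.96, without replicate 1 of either group). Both 48 h comparisons use the same siNT1 libraries. The median log2 fold change of the members was 0.496 with siGGGGGC and 0.433 with siGGCAGU, beside -0.011 and 0.024 over all tested genes. Under scaling by library totals alone the medians were 0.338 and 0.287 while the medians of all genes moved to -0.169 and -0.128, and the counts became 16 higher and 3 lower with siGGGGGC and 11 higher and 6 lower with siGGCAGU. Over all genes the counts were then 3236 higher and 5337 lower with siGGGGGC, in place of 4702 and 4643. With siGGCAGU they were 3257 and 4769, in place of 4699 and 4207.

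Markers of cell identity also moved. At 24 h with siGGGGGC, 1 of the 6 tested epithelial markers rose and 1 fell, and 2 of the 3 mesenchymal markers fell. Over all genes 10.6% rose and 8.32% fell. FN1 was lower by 1.45 on the log2 scale. The endothelial marker PECAM1 was lower, at 2.887 and 1.43 normalised counts against 19.09 and 7.856. At 48 h with siGGGGGC 4 of the 6 tested epithelial markers (KRT8, KRT18, PAX8 and WT1) fell beyond 2-fold, against 11% of all genes, and the list's median log2 fold change was -1.335. All 3 mesenchymal markers fell, against 27.5% of all genes. On the log2 scale FN1 fell by 3.72, VIM fell by 0.89 and CDH2 fell by 0.49. The fibroblast marker PDGFRB was higher by 3.59 (adjusted p = 1.29e-05), at 33.53 and 56.95 normalised counts against 5.422 and 2.291 with siNT1. With siGGCAGU 2 epithelial markers rose and 2 fell (median -0.270), where 27.8% of all genes rose and 24.9% fell. Of the mesenchymal markers FN1 rose and VIM fell with siGGCAGU. PECAM1, an endothelial marker, rose at 11.77 and 10.41 normalised counts against 3.098 and 1.719. The part of these markers in the members' change was not tested.

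At 24 h siGGGGGC raised 3 members and lowered 2, and none of the 29 passed 2-fold. These are 10.3% and 6.9% of the tested members, near the 10.6% and 8.32% of all genes. FDXR, DDB2 and TP53INP1 were higher and CDKN1A and TRIM22 were lower. FDXR kept its call when any 1 library was left out. CDKN1A, TP53INP1 and TRIM22 lost theirs without any 1 of the 4 libraries at 24 h, with adjusted p of 0.0592 to 0.204, 0.0768 to 0.119 and 0.0572 to 0.107. DDB2 lost its call without siNT1 replicate 2 or siGGGGGC replicate 2, where the adjusted p reached 0.0765. The members' median log2 fold change at 24 h was 0.129, and 0.003 over all genes.

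**Figure D1:**
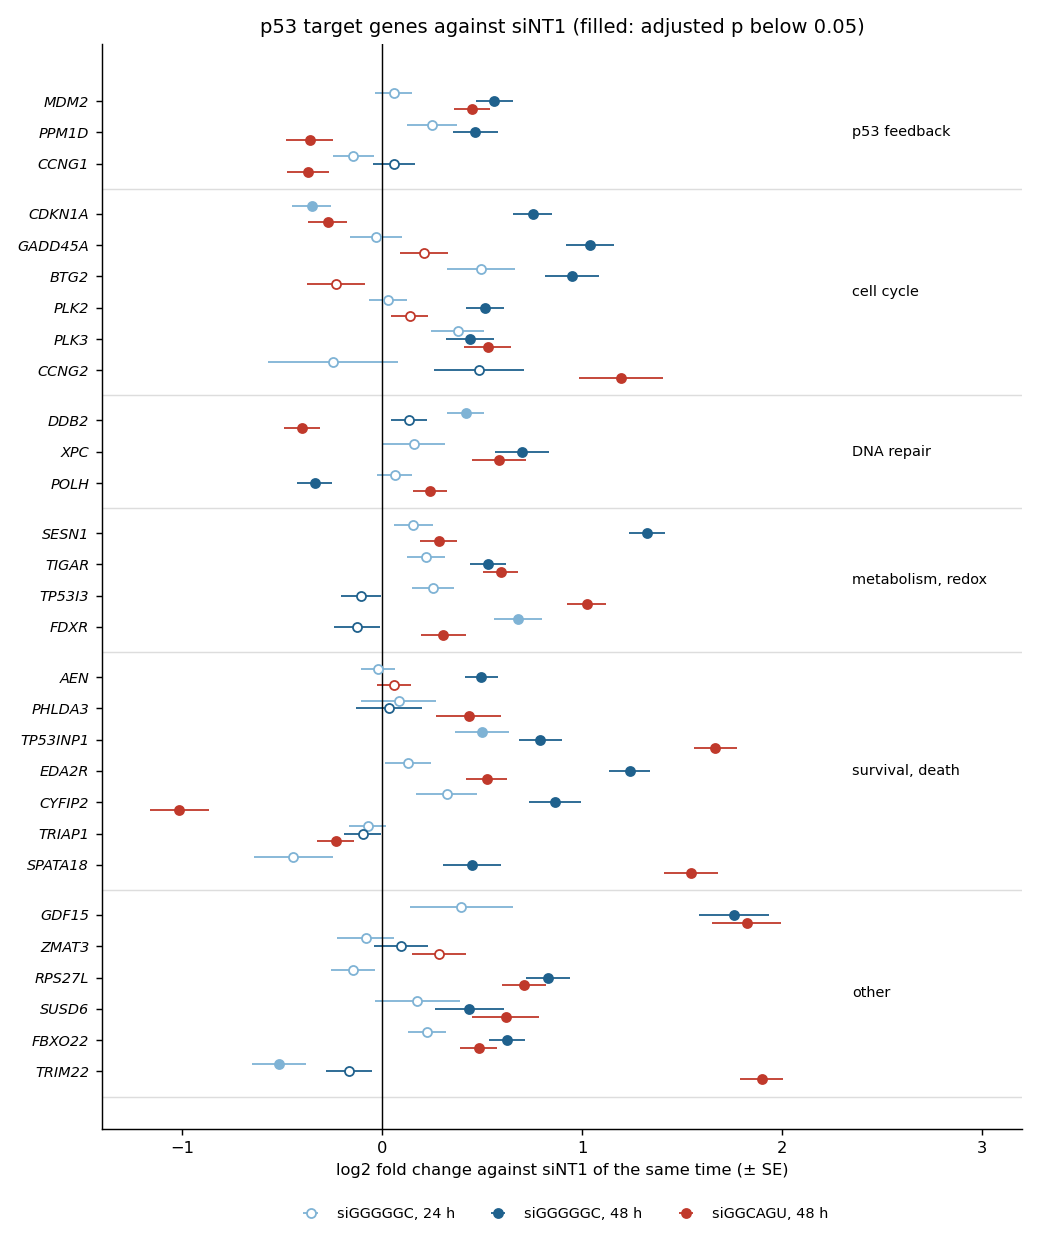
Log2 fold change of the 29 tested p53 target genes against siNT1 of the same time, with the standard error of the fit, grouped by role. Light blue is siGGGGGC at 24 h, dark blue siGGGGGC at 48 h and red siGGCAGU at 48 h, and filled points have an adjusted p below 0.05. Dark blue points are filled on the right for 19 members, and red points for 18.

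MDM4, which binds p53 and blocks its activity, rose with siGGGGGC at 48 h and did not pass the test at 24 h or with siGGCAGU. Its normalised counts (replicate 1 then replicate 2, as in all lists below) were 690.9 and 676.9 with siNT1 and 675.6 and 633.5 with siGGGGGC at 24 h, and 621.9 and 641.6 with siNT1, 887.5 and 925.8 with siGGGGGC and 606.8 and 647.9 with siGGCAGU at 48 h. The siGGGGGC libraries at 48 h lay above all the others. The log2 fold change was 0.52 ± 0.09 with siGGGGGC at 48 h (adjusted p = 0.000137) and -0.01 ± 0.09 with siGGCAGU (adjusted p = 0.949), and the siRNAs differed directly by 0.53 (adjusted p = 0.000133). The longest annotated 3′ UTR of MDM4, 9419 bases, holds 8 matches to the siGGCAGU seed and 1 to the siGGGGGC seed.

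Among the members that feed back on p53, MDM2 rose with both siRNAs at 48 h. MDM2 encodes the ubiquitin ligase that marks p53 for degradation, and lies at chr12:68808177-68845544 (hg38, plus strand). Its normalised counts were 8903 and 9191 with siNT1 and 9310 and 9532 with siGGGGGC at 24 h, and 10550 and 11710 with siNT1, 16820 and 16020 with siGGGGGC and 15920 and 14490 with siGGCAGU at 48 h. All libraries of both siRNAs at 48 h were above the siNT1 libraries. The log2 fold change was 0.06 ± 0.09 with siGGGGGC at 24 h (adjusted p = 0.717), 0.56 ± 0.09 at 48 h (adjusted p = 8.94e-05) and 0.45 ± 0.09 with siGGCAGU (adjusted p = 0.000652). Genes that include CPM overlap 14.7% of its exonic bases. PPM1D, the phosphatase WIP1 that removes activating phosphates from p53 and its kinases, rose 1.38-fold with siGGGGGC at 48 h (adjusted p = 0.00253) and fell with siGGCAGU to 0.779 of siNT1 (adjusted p = 0.0165). The rise was lost without siGGGGGC replicate 1 (adjusted p = 0.0578) and the fall without siGGCAGU replicate 2 (adjusted p = 0.2). CCNG1, cyclin G1, which recruits a phosphatase to MDM2, fell with siGGCAGU to 0.773 of siNT1 (adjusted p = 0.00708), a call lost without siNT1 replicate 2 or siGGCAGU replicate 2 (adjusted p up to 0.0674), and did not pass with siGGGGGC.

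Of the 6 cell cycle members, 5 rose with siGGGGGC at 48 h (27.8% of all genes), and 2 rose and 1 fell with siGGCAGU (27.8% and 24.9%). CDKN1A encodes p21, the inhibitor of cyclin-dependent kinases, and lies at chr6:36676460-36687337 (hg38, plus strand). It had 5554 and 6058 normalised counts with siNT1 and 4580 and 4514 with siGGGGGC at 24 h. At 48 h it had 7204 and 7421 with siNT1, 11640 and 13000 with siGGGGGC and 6508 and 5611 with siGGCAGU. The siGGGGGC libraries were the lowest of all at 24 h and the highest of all at 48 h, and the siGGCAGU libraries lay below siNT1. The log2 fold change with siGGGGGC was -0.35 ± 0.10 at 24 h (adjusted p = 0.0188) and 0.75 ± 0.10 at 48 h (adjusted p = 8.35e-06), and with siGGCAGU it was -0.27 ± 0.10 (adjusted p = 0.0265). The fall with siGGGGGC at 24 h lost its call without any 1 library of that time (log2 -0.41 to -0.27). The siGGCAGU call was lost without siNT1 replicate 2 or siGGCAGU replicate 2 (log2 -0.38 to -0.17 with 1 library left out). The rise with siGGGGGC at 48 h held whichever library was left out.

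GADD45A, a stress sensor that binds PCNA and CDK1, had 1007 and 938.8 normalised counts with siNT1 and 1022 and 883.7 with siGGGGGC at 24 h, and 1272 and 1428 with siNT1, 2806 and 2748 with siGGGGGC and 1325 and 1788 with siGGCAGU at 48 h. The siGGGGGC libraries at 48 h stood above every other library, and siGGCAGU overlapped siNT1. It rose 2.06-fold with siGGGGGC at 48 h (log2 1.04 ± 0.12, adjusted p = 3.13e-06). CCNG2, cyclin G2, an atypical cyclin linked to cell cycle exit, had the opposite preference at low counts, with 39.38 and 35.35 with siNT1 and 25.98 and 37.18 with siGGGGGC at 24 h, and 72.03 and 45.26 with siNT1, 83.83 and 77.66 with siGGGGGC and 122.9 and 139.1 with siGGCAGU at 48 h. The siGGCAGU libraries were the highest. It rose 2.29-fold with siGGCAGU (log2 1.19 ± 0.21, adjusted p = 0.000187) and did not pass with siGGGGGC at 48 h (log2 0.48 ± 0.22, adjusted p = 0.0794).

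The antiproliferative gene BTG2 rose 1.93-fold with siGGGGGC at 48 h (adjusted p = 2.61e-05), and PLK2, a polo-like kinase of the stress response, rose 1.43-fold (adjusted p = 0.000275). Neither passed the test with siGGCAGU. PLK3, the related stress kinase, rose with both, by 1.36-fold with siGGGGGC (adjusted p = 0.00563) and 1.44-fold with siGGCAGU (adjusted p = 0.00148). The siGGGGGC call of PLK3 was lost without siNT1 replicate 1 or siGGGGGC replicate 2 at 48 h (adjusted p up to 0.106).

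The 3 DNA repair members each behaved differently. XPC, which finds bulky lesions for nucleotide excision repair, rose 1.62-fold with siGGGGGC (adjusted p = 0.000435) and 1.5-fold with siGGCAGU (adjusted p = 0.00192) at 48 h. Opposite-strand genes that include XPC-AS1 overlap 24.6% of its exonic bases. DDB2, the damage-binding subunit for ultraviolet lesions and the member with the best response element match above, rose 1.34-fold with siGGGGGC at 24 h (adjusted p = 0.005), did not pass at 48 h, and fell with siGGCAGU to 0.757 of siNT1 (adjusted p = 0.0015). POLH, the polymerase that copies past ultraviolet damage, was the 1 member that fell with siGGGGGC at 48 h, to 0.792 of siNT1 (adjusted p = 0.00398). It was 1.18-fold higher with siGGCAGU (adjusted p = 0.027), a call lost in 3 of the 4 fits without 1 library (all but the one without siNT1 replicate 2, adjusted p up to 0.128).

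SESN1, sestrin 1, which restrains mTORC1 and supports antioxidant defence, had the largest rise of the metabolic and redox members. It had 442.7 and 413.7 normalised counts with siNT1 and 466.3 and 489 with siGGGGGC at 24 h, and 451.5 and 439.4 with siNT1, 1133 and 1099 with siGGGGGC and 541.4 and 542.2 with siGGCAGU at 48 h. The siGGGGGC libraries at 48 h stood far above the others, and the groups at 48 h did not overlap. It rose 2.51-fold with siGGGGGC at 48 h (log2 1.32 ± 0.09, adjusted p = 1.09e-08) and 1.22-fold with siGGCAGU (adjusted p = 0.0167), the latter lost without siNT1 replicate 2 or siGGCAGU replicate 2 (adjusted p up to 0.0701).

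TP53I3 (PIG3), an oxidoreductase that adds to reactive oxygen species, moved with siGGCAGU instead. Its normalised counts were 514.3 and 538.1 with siNT1 and 671.3 and 584.8 with siGGGGGC at 24 h, and 621.2 and 567.7 with siNT1, 541 and 564.4 with siGGGGGC and 1153 and 1258 with siGGCAGU at 48 h. The siGGCAGU libraries stood far above the other 8. It rose 2.03-fold with siGGCAGU (log2 1.02 ± 0.10, adjusted p = 3.46e-07) and did not pass with siGGGGGC at either time. TIGAR, which lowers glycolytic flux, rose with both siRNAs at 48 h, 1.45-fold with siGGGGGC (adjusted p = 0.000126) and 1.51-fold with siGGCAGU (adjusted p = 4.61e-05). FDXR, ferredoxin reductase of the mitochondrial steroid and iron-sulfur pathways, rose 1.6-fold with siGGGGGC at 24 h (adjusted p = 0.00102) but did not pass at 48 h, and was 1.24-fold higher with siGGCAGU (adjusted p = 0.0329, up to 0.231 without siNT1 replicate 2 or siGGCAGU replicate 2).

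Of the 7 tested members with roles in survival and death, 5 rose with siGGGGGC at 48 h, and 4 rose and 2 fell with siGGCAGU, where 27.8% of all genes rose with siGGGGGC and 27.8% rose and 24.9% fell with siGGCAGU. The 2 of 7 that fell are near the share of all genes. TP53INP1, a nuclear protein that promotes p53 phosphorylation, autophagy and death, had 189.7 and 176.8 normalised counts with siNT1 and 258.4 and 260.2 with siGGGGGC at 24 h, and 459.3 and 409 with siNT1, 774.6 and 725.9 with siGGGGGC and 1238 and 1504 with siGGCAGU at 48 h. The groups did not overlap at either time. It rose 1.41-fold with siGGGGGC at 24 h (adjusted p = 0.0186), 1.73-fold at 48 h (adjusted p = 1.85e-05) and 3.17-fold with siGGCAGU (log2 1.66 ± 0.11, adjusted p = 5.82e-09). EDA2R, a TNF receptor family member for ectodysplasin A2, had 349.6 and 426.8 with siNT1 and 424.4 and 423.3 with siGGGGGC at 24 h, and 463.2 and 500.1 with siNT1, 1145 and 1130 with siGGGGGC and 720.6 and 667.2 with siGGCAGU at 48 h. The 3 groups at 48 h were apart from each other. It rose 2.36-fold with siGGGGGC at 48 h (log2 1.24 ± 0.10, adjusted p = 8.67e-08) and 1.44-fold with siGGCAGU (adjusted p = 0.000519).

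CYFIP2, a WAVE complex subunit linked to p53-dependent death, moved in opposite directions. It had 182.6 and 153.2 normalised counts with siNT1 and 187.7 and 233.1 with siGGGGGC at 24 h, and 222.3 and 205.1 with siNT1, 409.1 and 368.6 with siGGGGGC and 100.7 and 109.3 with siGGCAGU at 48 h. The siGGCAGU libraries were the lowest and the siGGGGGC libraries at 48 h the highest of the 10. It rose 1.82-fold with siGGGGGC at 48 h (log2 0.87 ± 0.13, adjusted p = 4.3e-05) and fell 2.02-fold with siGGCAGU (log2 -1.01 ± 0.15, adjusted p = 3.04e-05), and it is one of the members with 2 ACTGCC matches shown above. SPATA18 (MIEAP), which acts in mitochondrial quality control, had 73.99 and 78.56 with siNT1 and 47.64 and 64.35 with siGGGGGC at 24 h, and 120.8 and 115.1 with siNT1, 168.8 and 153.3 with siGGGGGC and 345.3 and 342.9 with siGGCAGU at 48 h. The siGGCAGU libraries were the highest by a wide margin. It rose 2.92-fold with siGGCAGU (log2 1.54 ± 0.13, adjusted p = 1.29e-07) and 1.37-fold with siGGGGGC at 48 h (adjusted p = 0.0148), the latter lost without siNT1 replicate 2 or siGGGGGC replicate 1 (adjusted p up to 0.113).

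AEN, an apoptosis-enhancing nuclease, rose 1.41-fold with siGGGGGC at 48 h (adjusted p = 0.000129) and did not pass with siGGCAGU. PHLDA3, which blocks membrane binding of AKT, was 1.35-fold higher with siGGCAGU (adjusted p = 0.0356), but its log2 fold change ran from 0.04 to 0.72 with 1 library left out and the call was kept only without siGGCAGU replicate 1, where it was stronger. Another gene on the same strand overlaps 18.4% of its exonic bases. TRIAP1, which supports survival by binding HSP70 and in mitochondrial lipid transfer, fell with siGGCAGU to 0.852 of siNT1 (adjusted p = 0.0462, up to 0.364 without siNT1 replicate 2 or siGGCAGU replicate 2) and did not pass with siGGGGGC.

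**Figure D2:**
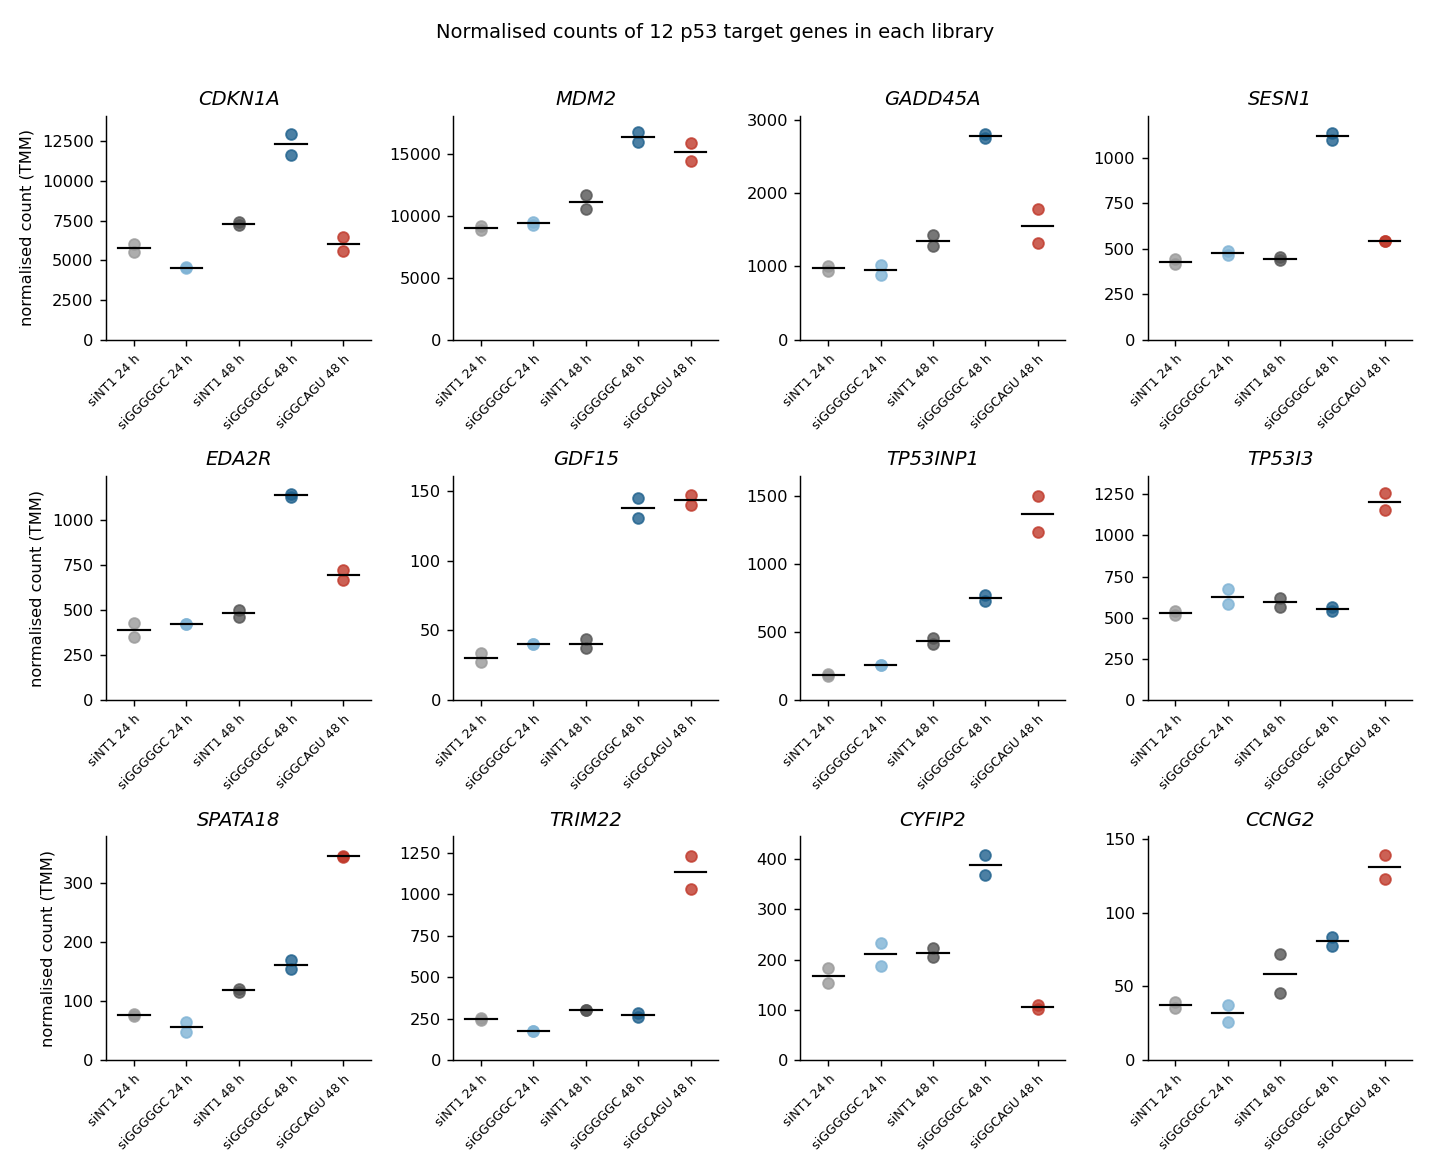
Normalised counts of 12 p53 target genes in each of the 10 libraries, as points, with the mean of each pair as a line; each axis starts at 0. CDKN1A, GADD45A, SESN1 and EDA2R stood highest with siGGGGGC at 48 h, TP53INP1, TP53I3, SPATA18, TRIM22 and CCNG2 with siGGCAGU, and GDF15 was high with both.

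GDF15, a secreted stress cytokine of the TGF-beta superfamily, had the largest rise of any member with siGGGGGC and also rose with siGGCAGU. It had 33.41 and 27.5 normalised counts with siNT1 and 40.42 and 40.04 with siGGGGGC at 24 h, and 37.18 and 43.54 with siNT1, 130.8 and 145 with siGGGGGC and 139.9 and 147.3 with siGGCAGU at 48 h. The 4 libraries of the siRNAs at 48 h lay above the other 6 and overlapped one another. It rose 3.39-fold with siGGGGGC at 48 h (log2 1.76 ± 0.18, adjusted p = 6.09e-07) and 3.54-fold with siGGCAGU (log2 1.82 ± 0.17, adjusted p = 3.38e-07), and at 24 h its log2 fold change was 0.40 ± 0.26 (adjusted p = 0.343). TRIM22, an interferon-inducible ubiquitin ligase that is also a p53 target, was the member that differed most between the siRNAs. Its counts were 254.2 and 240.9 with siNT1 and 171.8 and 174.5 with siGGGGGC at 24 h, and 302.8 and 302.5 with siNT1, 257.1 and 282.7 with siGGGGGC and 1232 and 1031 with siGGCAGU at 48 h. The siGGCAGU libraries were far above the other 8. It rose 3.73-fold with siGGCAGU (log2 1.90 ± 0.11, adjusted p = 1.39e-09), fell with siGGGGGC at 24 h to 0.699 of siNT1 (adjusted p = 0.0137) and did not pass at 48 h.

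Of the remaining members, RPS27L, a ribosomal protein S27 paralogue that binds MDM2, rose 1.77-fold with siGGGGGC (adjusted p = 1.16e-05) and 1.63-fold with siGGCAGU (adjusted p = 5.52e-05) at 48 h. FBXO22, an F-box protein of a ubiquitin ligase, rose 1.54-fold (adjusted p = 3.17e-05) and 1.4-fold (adjusted p = 0.000356), with NRG4 overlapping 16.2% of its exonic bases on the opposite strand. SUSD6, a membrane protein induced after DNA damage, rose 1.35-fold with siGGGGGC (adjusted p = 0.0402) and 1.53-fold with siGGCAGU (adjusted p = 0.00572). Its siGGGGGC call was kept only without siNT1 replicate 1 (adjusted p up to 0.291 in the others), and its siGGCAGU call was lost without siNT1 replicate 2 (adjusted p = 0.0637). ZMAT3, an RNA-binding regulator of splicing, was the 1 tested member that passed with neither siRNA at either time.

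The siRNAs were set against each other directly at 48 h, the time that both were sampled. Of the 29 members, 11 (37.9%) were higher with siGGGGGC and 7 (24.1%) higher with siGGCAGU, beside 26.7% and 27.6% of all tested genes. The second share was near that of all genes. CYFIP2, BTG2, SESN1 and CDKN1A were beyond 2-fold higher with siGGGGGC, and TRIM22, TP53I3 and SPATA18 beyond 2-fold higher with siGGCAGU. These 4 and 3 of the 29 members are near the 10.1% and 12.8% of all genes that differed by that much. CYFIP2 was 3.67-fold higher with siGGGGGC (adjusted p = 3.58e-08), BTG2 2.26-fold (adjusted p = 4.78e-06), SESN1 2.06-fold (adjusted p = 1.24e-07) and CDKN1A 2.03-fold (adjusted p = 3.17e-07). TRIM22 was 4.18-fold higher with siGGCAGU (adjusted p = 8.91e-10), TP53I3 2.18-fold (adjusted p = 1.55e-07) and SPATA18 2.14-fold (adjusted p = 5.89e-06). CDKN1A was not beyond 2-fold without siGGCAGU replicate 2 or siGGGGGC replicate 2 (log2 down to 0.91).

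Relative to siNT1, 12 members rose with both siRNAs, and 4 of these (SESN1, EDA2R, TP53INP1 and SPATA18) still differed between them. Of all tested genes 13.6% rose with both, in comparisons that share the siNT1 libraries. PPM1D, CDKN1A and CYFIP2 rose with siGGGGGC and fell with siGGCAGU, and POLH did the reverse, and all 4 differed in the direct comparison. The share of all genes with such opposite calls is not given here. With 1 library left out, PPM1D could lose its call with either siRNA, and CDKN1A and POLH theirs with siGGCAGU. The direct difference of all 4 held whichever library was left out. The 11 members that did not pass the direct comparison were not shown to respond alike, since their intervals have width. For GDF15 the 95% interval of the log2 difference, siGGGGGC over siGGCAGU, was -0.40 to 0.28. For MDM2 it was -0.08 to 0.30, for RPS27L -0.11 to 0.35, for TIGAR -0.25 to 0.13 and for XPC -0.17 to 0.40. For PHLDA3 it was -0.75 to -0.04, all on the siGGCAGU side, at an adjusted p of 0.054. CCNG2 and FDXR were the members whose direct difference depended on 1 library. CCNG2 lost it without siGGCAGU replicate 2 or siGGGGGC replicate 2 (adjusted p up to 0.074), and FDXR without siGGGGGC replicate 1 (adjusted p = 0.0806).

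**Figure D3:**
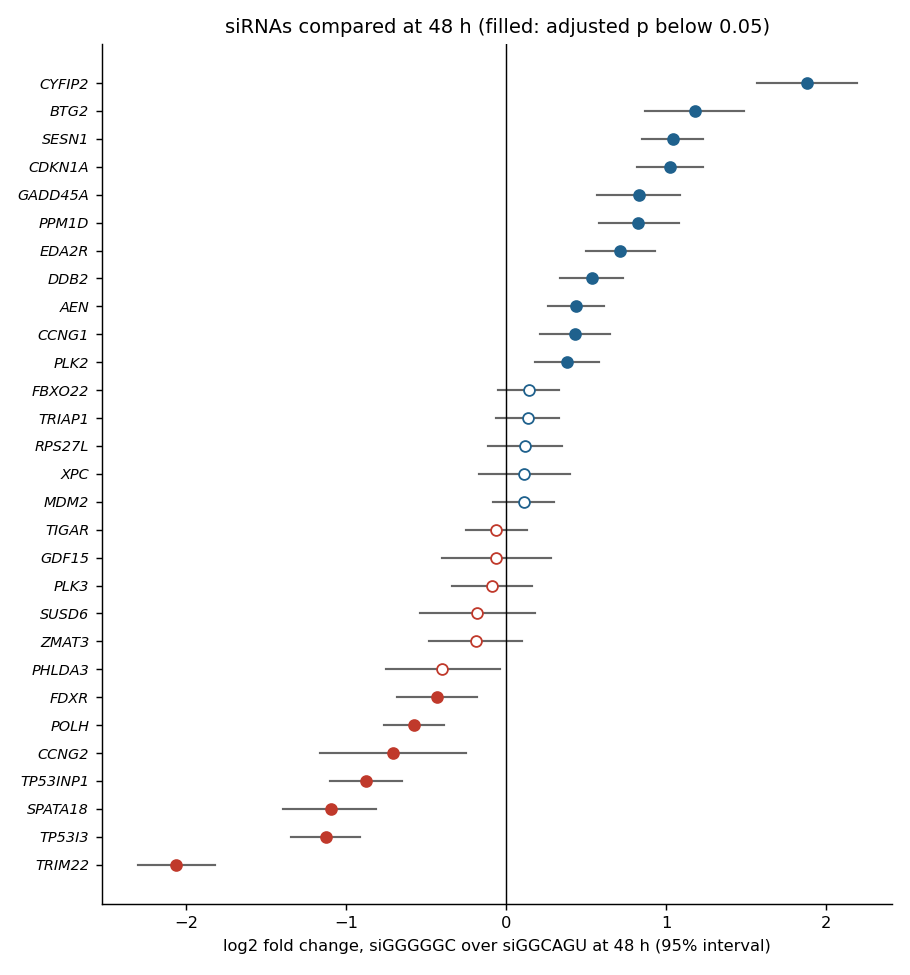
Log2 fold change of siGGGGGC over siGGCAGU at 48 h for the 29 tested p53 target genes, with 95% intervals, sorted. Filled points have an adjusted p below 0.05, and blue points lie on the siGGGGGC side. The order runs from CYFIP2 at 1.88 to TRIM22 at -2.06, with 11 open points between them.

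The log2 effect of siGGGGGC was higher at 48 h than at 24 h for 11 of the 29 members and lower for 2, beside 13.4% and 15.2% of all genes, by the interaction term of the fit. The shift was beyond 2-fold for CDKN1A, GADD45A, SESN1, EDA2R and GDF15, and FDXR and POLH were the 2 that were lower. The share of all genes with a shift beyond 2-fold is not given here, so the members cannot be set against it. The shift was within 2-fold for GADD45A without siGGGGGC replicate 2 at 24 h or siNT1 replicate 1 at 48 h (log2 down to 0.96), and for EDA2R without siNT1 replicate 2 at 24 h (0.94). The 11 became 7 without siNT1 replicate 2 at 24 h, siGGGGGC replicate 1 at 24 h or siGGGGGC replicate 1 at 48 h. The median of this difference over the members was 0.399 on the log2 scale and -0.011 over all genes.

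The members also moved in control cells over the day between the harvests, which sets the base for both 48 h comparisons. The wells kept to 48 h had their medium changed at 24 h, so time and fresh medium cannot be told apart here. With siNT1, 9 members were higher at 48 h than at 24 h and 1 was lower, beside 9.37% and 7.2% of all genes. TP53INP1 rose 2.36-fold (adjusted p = 4.13e-05), and this rise alone of the 10 calls held whichever library was left out. The other 9 (MDM2, PPM1D, CDKN1A, GADD45A, BTG2, PHLDA3, SPATA18, ZMAT3 and the lower TRIAP1) were each lost without 2 or more of the 4 libraries. In most of these fits fewer of all genes passed as well, so the losses are not particular to the members. ZMAT3 was 1.63-fold higher (adjusted p = 0.00451). Under scaling by library totals alone 17 members were higher and 0 lower in this comparison, with the median of all genes at 0.233. Over all genes 2729 were then higher and 179 lower, in place of 1584 and 1217.

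Other genes of the pathway were taken from 3 further lists. Of 19 genes for regulators and relatives of p53, 16 were tested, and 4 rose and 5 fell with siGGGGGC at 48 h, 6 rose and 4 fell with siGGCAGU, and 1 passed with siGGGGGC at 24 h. At 48 h these are 25% and 31.2% of the list with siGGGGGC, beside 27.8% and 27.5% of all genes, and 37.5% and 25% with siGGCAGU, beside 27.8% and 24.9%, so most of these shares were near those of all genes. The gene at 24 h was RCHY1, which was lower, a ubiquitin ligase for p53 (log2 -0.45, adjusted p = 0.00378, and 0.0642 without siNT1 replicate 2). With siGGGGGC at 48 h HIPK2, a kinase that phosphorylates p53, fell by 1.00 on the log2 scale (adjusted p = 0.00208), TP53BP1 and CHEK2 of the damage response fell by 0.59 (adjusted p = 0.000312) and 0.54 (adjusted p = 0.000894), and the acetyltransferase EP300 was higher by 0.56 (adjusted p = 0.0322). HIPK2 ran from -1.46 to -0.38 with 1 library left out and kept its call (adjusted p up to 0.0277), the smallest fall being without siNT1 replicate 1. EP300 went as low as 0.16 and lost its call without siNT1 replicate 2 or siGGGGGC replicate 1 (adjusted p up to 0.42). With siGGCAGU the deacetylase SIRT1 fell by 1.02 (adjusted p = 3.97e-05), CHEK2 by 0.99 (adjusted p = 3.97e-06), the deubiquitinase USP7 by 0.95 (adjusted p = 3.6e-06) and the checkpoint kinase CHEK1 by 0.88 (adjusted p = 1.1e-06). The list's median log2 fold change was 0.047 with siGGGGGC and 0.006 with siGGCAGU at 48 h.

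A second list held 27 p53 targets that are not members, of which 25 were tested. With siGGGGGC 6 rose and 5 fell at 24 h and 12 rose and 5 fell at 48 h, and with siGGCAGU 9 rose and 7 fell. The shares that rose and fell were 24% and 20% at 24 h, beside 10.6% and 8.32% of all genes, 48% and 20% at 48 h, beside 27.8% and 27.5%, and 36% and 28% with siGGCAGU, beside 27.8% and 24.9%. The list's median log2 fold change was -0.010 at 24 h, 0.230 at 48 h and 0.033 with siGGCAGU, below the members' 0.129, 0.496 and 0.433. With 1 library left out 3 to 4 rose and 2 fell at 24 h. Among genes with a mean of at least 100 normalised counts, the largest changes at 48 h with siGGGGGC were in RRAD, a small GTPase (log2 3.66, adjusted p = 2.84e-09), the BH3-only death gene PMAIP1 (log2 2.38, adjusted p = 1.52e-11), SFN, the checkpoint protein 14-3-3 sigma (log2 -2.69, adjusted p = 4.79e-11), and the metalloreductase STEAP3 (log2 -2.45, adjusted p = 9.31e-10). With siGGCAGU they were in the autophagy regulator DRAM1 (log2 2.1, adjusted p = 1.61e-10), STEAP3 (log2 -1.43, adjusted p = 8.4e-08), the KIT ligand gene KITLG (log2 1.27, adjusted p = 8.41e-09) and ABHD4 (log2 1.24, adjusted p = 3.15e-07), and RRAD, below that level here, was higher by 1.25 (adjusted p = 0.00063). At 24 h KITLG (log2 -1.14, adjusted p = 1.8e-06) and SFN (log2 -1.12, adjusted p = 2.6e-06) were already lower with siGGGGGC, and PMAIP1 (log2 0.62, adjusted p = 0.000119) and SERTAD1 (log2 0.53, adjusted p = 0.00283, and 0.0685 without siNT1 replicate 1) were higher.

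The last list held 16 cell cycle genes that are known to be repressed through p21 and DREAM. With siGGCAGU all 16 fell beyond 2-fold, against 9.62% of all genes, with a median log2 fold change of -1.804. MYBL2, a transcription factor of the cell cycle, fell by 3.40 (adjusted p = 2.37e-10), cyclin A2 (CCNA2) by 2.43 (adjusted p = 6.44e-11) and the mitotic kinases PLK1 and AURKB by 2.19 each (adjusted p = 6.03e-09 and 4.31e-11). With siGGGGGC at 48 h 11 fell and 2 rose, against 27.5% and 27.8% of all genes, with a median of -0.608, led by FOXM1 at -2.01 (adjusted p = 9.15e-09), AURKB at -1.79 (adjusted p = 2.68e-10), CENPF at -1.04 (adjusted p = 3.29e-07) and CCNB1 at -1.03 (adjusted p = 2.07e-07). At 24 h 9 rose and the other 7 did not pass, where 10.6% of all genes rose, with a median of 0.390 and CDC25C at 0.87 (adjusted p = 5.21e-05), PRC1 at 0.79 (adjusted p = 0.00393), PLK1 at 0.61 (adjusted p = 0.004) and BIRC5 at 0.59 (adjusted p = 0.000284). With 1 library left out 5 to 9 rose at 24 h, and PRC1 and PLK1 lost their calls without siNT1 replicate 1 (adjusted p up to 0.0617). In bulk RNA fewer cells of a kind, such as cells in mitosis, and less RNA per cell cannot be told apart.

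**Figure D4:**
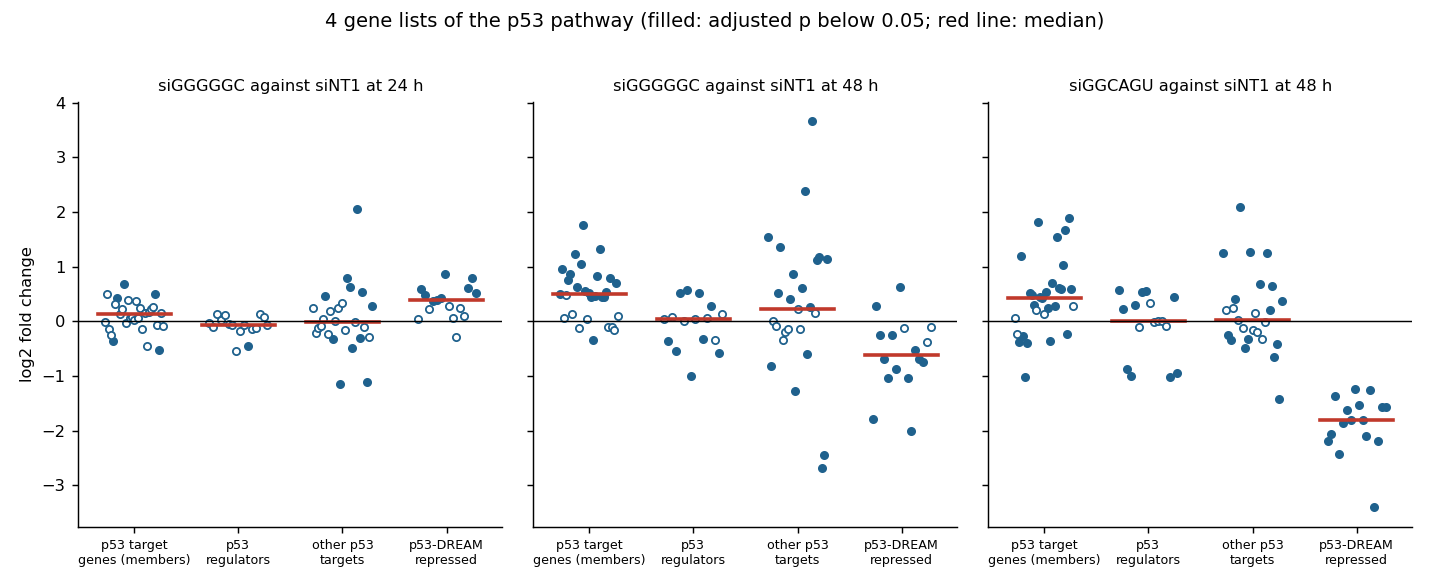
Log2 fold change of each tested gene in 4 lists of the p53 pathway, for siGGGGGC at 24 h, siGGGGGC at 48 h and siGGCAGU at 48 h against siNT1 of the same time. Filled points have an adjusted p below 0.05 and the red line is the list's median. The members' median was 0.496 and 0.433 at 48 h, and that of the p53-DREAM list -0.608 and -1.804.

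The share of members with a seed match was near that of other genes. GCCCCC occurred in the 3′ UTR of 11 of the 30 members (36.7%) and of 31.6% of the tested genes with an annotated 3′ UTR, and ACTGCC in 11 members (36.7%) and 36.5% of those genes. With siGGGGGC at 48 h the 10 tested members with GCCCCC had a median log2 fold change of 0.49 and the 19 without it 0.52, where all genes with it had -0.15 and those without it 0.07. At 24 h the medians were 0.07 for members with a match and 0.16 for those without, and 0.01 and 0.04 for all genes. With siGGCAGU, which carries the other seed, members with GCCCCC had a median of 0.27 and those without it 0.52. With siGGCAGU the 10 tested members with ACTGCC had a median of 0.38 and the 19 without it 0.43, where all genes had -0.05 and 0.08. CCNG1 and CYFIP2, with 2 matches each, both fell with siGGCAGU, but the CCNG1 call was lost without siNT1 replicate 2 or siGGCAGU replicate 2. TP53INP1, with 1 match, rose 3.17-fold. Of the other tested members with 1 match, XPC, TIGAR, SUSD6 and FBXO22 rose and BTG2, AEN and ZMAT3 did not pass. MDM4, which is not a member and has 8 matches, did not pass with siGGCAGU (log2 -0.01). CDKN1A, with its 4 GCCCCC copies, was lower with siGGGGGC at 24 h, a call lost without any 1 library, and higher at 48 h. These are descriptions of the annotated UTRs, whose use in HeyA8 cells was not measured.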

How the data were processed

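Total RNA of 10 HeyA8 libraries in 5 groups of 2 was depleted of ribosomal RNA and sequenced in pairs of reads. The authors used Trimmomatic on the reads, mapped these to hg38 and counted exonic reads per Ensembl gene with htseq, and the deposited files hold those raw counts, which are whole and not normalized. The submitters' processing notes name TopHat, Bowtie2, HTSeq and DESeq2, and the methods name TopHat or STAR and edgeR; which aligner made these files and the strand setting are not given in the sources used here. Counting leaves out reads that match several places and reads that overlap several genes in htseq's usual setting, which can lower genes with overlapping neighbours. The authors' 4 deposited tables of comparisons hold fold changes and p-values, and were not used.

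There were 0 entries that name no gene, and GENCODE 44 held 98.9% of the identifiers. Genes were filtered with filterByExpr, scaled with TMM and tested with edgeR 4.0.16 in R 4.3.3 (glmQLFit and glmQLFTest, 5 groups, 5 residual degrees of freedom), with Benjamini-Hochberg adjustment over all 16905 genes. Errors are standard errors of the fit. The biological coefficient of variation was 0.084. The procedure was tested on simulated data. Duplicates differed by more than counting noise in every group, so each library was counted.

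The members and the other lists were chosen with earlier results of these data known. All 30 members are named, with MDM4. Values in every library are given for CDKN1A, MDM2, GDF15, MDM4 and each member beyond 2-fold in a comparison with siNT1. From each other list at most 4 genes per comparison with siNT1 are named, those past the test with the largest change and a mean normalised count of at least 100. Alternatives were RLE scaling, library totals alone, TMM without RN7SL2 and SNORD3A, no filter, a mean count of at least 50, the replicate number as a block, DESeq2 1.42.0, fits of only the libraries compared, and each library left out in turn. Seed matches were counted in the longest annotated 3′ UTR of each gene (GENCODE 44), and promoters and the mature miRNA were taken from RefSeq (GRCh38.p14). A gene that the naming rule also covers and a sequence are not reported here.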

Additional observations from a re-analysis of the deposited data

Results flagged for a closer look

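For 13 of the 29 tested p53 target genes the effect of siGGGGGC at 48 h differed from that at 24 h by the interaction term of the edgeR fit (adjusted p below 0.05). The difference, the 48 h effect minus the 24 h effect on the log2 scale, was 1.37 for GDF15 (adjusted p = 0.00428), 1.17 for SESN1 (adjusted p = 1.45e-05), 1.11 for EDA2R (adjusted p = 7.94e-05), 1.10 for CDKN1A (adjusted p = 3.15e-05) and 1.07 for GADD45A (adjusted p = 0.000345). It was 0.97 for RPS27L (adjusted p = 0.00026), 0.89 for SPATA18 (adjusted p = 0.0128), 0.51 for AEN (adjusted p = 0.00447), 0.50 for MDM2 (adjusted p = 0.00862), 0.49 for PLK2 (adjusted p = 0.013) and 0.40 for FBXO22 (adjusted p = 0.0314). FDXR, which was higher at 24 h, had a difference of -0.81 (adjusted p = 0.00209), and POLH, which was lower at 48 h, one of -0.40 (adjusted p = 0.0255).

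CDKN1A was the member whose effect passed the test in opposite directions at the 2 times, with a log2 fold change of -0.35 at 24 h and 0.75 at 48 h. Its call at 24 h was lost without any 1 of the 4 libraries at that time (log2 -0.41 to -0.27). For 8 of the 13 the call of the interaction term was kept whichever of the 8 libraries of these groups was left out. FBXO22 lost it without any 1 of them (adjusted p of 0.0571 to 0.16) and POLH without 6 of them, all but siGGGGGC replicate 1 at 24 h and siNT1 replicate 1 at 48 h (adjusted p up to 0.11). MDM2 and SPATA18 lost it without siNT1 replicate 2 at 24 h, siGGGGGC replicate 1 at 24 h or siGGGGGC replicate 1 at 48 h (adjusted p up to 0.0588 and 0.0935). PLK2 lost it without these or without siGGGGGC replicate 2 at 48 h (adjusted p up to 0.0884). Groups of 2 libraries are too small for a test of single outlying libraries.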

How the results depend on the processing

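The counts of members past the test at 48 h and in the direct comparison stayed within 1.5 times of the values above in most alternatives. Scaling by library totals alone moved the median log2 fold change of all genes to -0.169 (siGGGGGC) and -0.128 (siGGCAGU) at 48 h and to 0.233 between the siNT1 times. With it 1 member was higher with siGGGGGC at 24 h in place of 3, 3 were lower with siGGGGGC at 48 h in place of 1, 11 were higher with siGGCAGU in place of 18, and 17 were higher and 0 lower in siNT1 over time in place of 9 and 1. Over all genes the first 3 of these counts were 781 in place of 1797, 5337 in place of 4643 and 3257 in place of 4699. In siNT1 over time they were 2729 and 179 in place of 1584 and 1217. With fits of only the libraries compared, 6 members were higher and 4 lower with siGGGGGC at 24 h in place of 3 and 2. The calls over all genes rose as well, from 1797 and 1406 to 2617 and 2488. The 1 member lower in siNT1 over time, TRIAP1, was lost (0 lower) without a filter, with DESeq2, with only the libraries compared and with the replicate block. With DESeq2, 1 member had a lower siGGGGGC effect at 48 h than at 24 h, in place of 2.

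With each library left out in turn, the members higher and lower with siGGGGGC at 24 h were 1 to 2 and 0, those lower with siGGCAGU 2 to 6, those with a higher and a lower siGGGGGC effect at 48 h than at 24 h 7 to 12 and 1 to 2, and those higher and lower in siNT1 over time 1 to 9 and 0 to 1. Over all genes the higher and lower calls at 24 h fell from 1797 and 1406 to 772 to 1044 and 670 to 721.

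Directions reversed only for small changes that did not pass the test. MDM2 at 24 h was -0.036 (log2) with library totals. MDM4 with siGGCAGU was 0.0036 with a mean count of at least 50 and -0.061 to 0.034 with a library left out. The direct difference of GDF15 was -0.13 to 0.0055 with a library left out.

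Replicate numbers did not pair the libraries, with correlations of the replicate differences between groups from -0.293 to 0.115. With the replicate number as a block 19 and 18 members were higher at 48 h with siGGGGGC and siGGCAGU, and 0 were lower in siNT1 over time. TRIAP1 with siGGCAGU (adjusted p = 0.067) and MDM2 in siNT1 over time (adjusted p = 0.0619) no longer passed.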
